A study of Homo sapiens with 6 samples.

Results

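The genes described here are 33 targets of p53, chosen by name from the 60483 genes in the count table. All 33 were found by their Ensembl identifiers, and 32 of them had enough reads to be tested. RNA was sequenced from A2780, an ovarian carcinoma cell line, in 3 WT libraries of the parental cells and 3 libraries of an A2780 CDK12 KO clone. CDK12 is a kinase that phosphorylates RNA polymerase II, and the KO cells were made with a CRISPR/Cas9 plasmid aimed at exon 1 of the gene. No drug treatment is given for any library. All KO libraries come from 1 clone, picked after successive rounds of transfection and selection, so clone and genotype cannot be told apart. The labels do not say whether the libraries of a group come from separate cultures, and p-values then measure only the spread between these libraries.

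p53 is a transcription factor that is held at a low level by MDM2 and is stabilised after DNA damage and other stress. It binds a response element in or near its target genes, and these targets halt the cell cycle, repair DNA, change metabolism or promote cell death, while some of them feed back to restrain p53 itself. A2780 is generally described as a p53 wild-type line.

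Total counts were between 11098400 (WT replicate 3) and 30899045 per library, so that 3 counts correspond to between 0.1 and 0.270 CPM, counts per 1000000 of the TMM-scaled library total; such floors cover counting error only. The RNA of CDK12, the targeted gene, was at 103, 125 and 117 CPM in WT and 99.0, 93.0 and 102 CPM in KO (log2 fold change -0.23, SE 0.0582, adjusted p = 8.2e-04), and the files do not show the edited bases. Of 7 epithelial and ovarian carcinoma markers, KRT18, KRT8 and EPCAM passed the filter on low counts, whereas CDH1, PAX8, WT1 and MUC16 were below 0.2 CPM on average in both groups and MUC16 was at 0 in KO. The summed level of these 7 was 68.2 to 73.9 CPM in WT and 114 to 119 CPM in KO. Most of this sum was KRT18, with 59.9 CPM in WT and 103 CPM in KO on average. KRT18 and KRT8 were higher in KO (log2 fold changes 0.78 and 0.56), whereas EPCAM was lower (-0.53). The 4 fibroblast genes summed to 5139 to 5271 CPM in WT and 2677 to 2811 CPM in KO, nearly all of it COL1A2 and COL1A1, with DCN and LUM at 0 in all KO libraries. The 3 endothelial genes stayed under 0.9 CPM in sum in every library and the 4 leukocyte genes under 0.6 CPM, with CD3E at 0 in WT. The part of these differences in the results for p53 targets was not tested.

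Most p53 targets with a difference were higher in the KO cells, by factors below the threshold of 2. At an adjusted p under 0.05, 18 of the 32 tested targets were higher in KO and 6 were lower, beside 31.9% and 32.0% of all 16198 tested genes in these directions. Past both thresholds of the study, that adjusted p together with a log2 fold change of more than 1 in size, PERP, SESN2 and CD82 were up-regulated (8.30% of all tested genes were) and PLK2 and SPATA18 were down-regulated (7.73% of all). The median log2 fold change of the 32 targets was 0.28, beside 0.00 for all tested genes, and 22 of the 32 were above 0. In 23 of the 32 no KO library overlapped the WT libraries, beside 66.4% of all tested genes. For a single gene with separate groups the exact permutation test of 3 libraries against 3 gives p = 0.1, the smallest it allows, so the calls rest on the edgeR fit across all genes. In bulk RNA, fewer cells that express a gene and less RNA per cell cannot be told apart.

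The DNA element that p53 recognises was searched for around these genes, because p53 binds in or near its targets. The p53 response element joins 2 decamers, each with a C and a G around a pair of A or T bases. In the joined element the fixed letters are CNNGNNNNNNCNNG. A match was counted where these letters and the A or T pairs were intact and at most 2 of the 12 flanking purine or pyrimidine positions differed, within 5000 bases of the annotated transcript start. The consensus equals its own reverse complement, so both strands were covered. Such a match was present at 13 of the 33 targets (39.4%) and at 5.06% of 15989 tested genes with an annotated start. With at most 1 differing position the shares were 18.2% and 0.838%. The genes were chosen as known p53 targets, so this contrast describes the choice of genes. A match is a run of letters and not a shown binding site, and targets without a match can hold an element outside this window. Elements with bases between the 2 decamers, or with a change in the fixed letters or the A or T pairs, were not searched for.

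The elements of the targets on which the results turn are shown in the direction of the gene on GRCh38, the 20 bases of the element in capitals and 5 bases on each side in lower case.
PLK2: atgagAAACATGCCTGGACTTGCCCtgcac
ZMAT3: tcataAAACAAGTCCAGACATGCCTaggca
CDKN1A: gtcagGAACATGTCCCAACATGTTGagctc
GADD45A: gtacaGAACATGTCTAAGCATGCTGgggac
PERP: atcacAGGCAAGCTCCAGCTTGTTCaaggg
BTG2: gggtcACGCATGTTCAGGCATGCATggaat
CCNG1: tgtgaGCACAAGCCCAGGCTAGTCCgaggc
SPATA18: aggaaGGACATGTGTGTACATGCCCttgtc

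Those of PLK2 and ZMAT3 match the consensus at every position. The element of PLK2 lies 2198 bases upstream of the start, on the minus strand at chr5:58462274-58462293, and that of ZMAT3 lies in an intron, 1612 bases past the start, on the minus strand at chr3:179070188-179070207. CDKN1A has its element 2256 bases upstream, on the plus strand at chr6:36676449-36676468, with 2 differing positions. In BTG2 it is 1868 bases upstream, on the plus strand at chr1:203303642-203303661, also with 2. The other 4 lie in introns. GADD45A has its element 1584 bases past the start (plus strand, chr1:67686775-67686794, 1 differing position) and PERP 3340 bases past it (minus strand, chr6:138104070-138104089, 1 differing position). The first of the matches in CCNG1 is 340 bases past the start (plus strand, chr5:163437926-163437945, 1 differing position), and that of SPATA18 is 662 bases past it (plus strand, chr4:52051957-52051976, 2 differing positions). Targets with and without a match moved in each direction. Of the 13 tested targets with a match 7 were higher in KO, 3 were lower and 3 had no call, with a median log2 fold change of 0.23. Of the 19 without a match 11 were higher, 3 were lower and 5 had no call, with a median of 0.37. Beside these counts, 31.9% of all tested genes were higher and 32.0% lower at an adjusted p under 0.05.

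Among the genes that feed back on p53, MDM2 and PPM1D rose in KO, CCNG1 was slightly lower and MDM4 had no call. MDM2, the ubiquitin ligase that marks p53 for degradation, was at 139, 144 and 140.1 CPM in the WT libraries and at 214, 194 and 214 CPM in the KO libraries. All KO libraries lay above all WT libraries, a 1.47-fold rise (log2 0.55, SE 0.0495, adjusted p = 1.69e-11). PPM1D, a phosphatase that removes activating phosphates from p53 and from the kinase ATM, was counted 1296, 1426 and 492 times in WT and 1750, 1920 and 1256 times in KO. On the CPM scale these were 47.3, 47.6 and 44.3 against 71.2, 71.3 and 70.6, and PPM1D had the smallest adjusted p of this group (1.31e-11), with a 1.52-fold rise. CCNG1, cyclin G1, which brings a phosphatase to MDM2, went from 175 ± 2.13 to 157 ± 6.60 CPM (SD, n = 3 each), with a log2 change of -0.16 (adjusted p = 0.0053). MDM4, a relative of MDM2 that binds and blocks p53, was at 176 ± 4.58 CPM in WT against 172 ± 8.83 CPM in KO cells (SD, n = 3 each). The libraries of both groups overlapped, and the 95% interval of its log2 fold change ran from -0.13 to 0.07.

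Of the 6 cell cycle genes 4 rose, PLK2 fell and PLK3 had no call, beside 31.9% of all tested genes higher and 32.0% lower. CDKN1A encodes p21, the inhibitor of cyclin-dependent kinases through which p53 halts the cycle. Its level was 27.7, 30.7 and 31.5 CPM in WT and 38.0, 36.1 and 39.2 CPM in KO, groups that did not overlap. The rise was 1.26-fold (log2 0.34, SE 0.0646, adjusted p = 3.1e-05). GADD45A, a growth arrest gene induced by DNA damage, rose by the same factor, from 31.7 ± 2.75 to 39.5 ± 2.27 CPM (SD, n = 3 each; adjusted p = 4.64e-05). BTG2, an antiproliferative partner of the mRNA deadenylase complex, had 34.9, 38.2 and 35.8 CPM in WT, next to 61.9, 60.5 and 63.6 CPM in KO. The groups were far apart, with a 1.70-fold rise (adjusted p = 2.14e-13). CCNG2, cyclin G2, a cyclin of resting cells that FOXO factors also induce, varied more within a group. It had 29.2, 19.3 and 25.6 CPM in WT, next to 39.0, 32.8 and 41.9 CPM in KO, a log2 fold change of 0.62 (SE 0.0963, adjusted p = 1.21e-06).

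The polo-like kinases PLK2 and PLK3 did not move alike. PLK2, which acts in centriole duplication and spans 58453982 to 58460139 on chromosome 5, was counted 2897, 3228 and 1154 times in WT and 970, 1130 and 613 times in KO. Scaled to the libraries this was 106, 108 and 104 CPM against 39.5, 42.0 and 34.4 CPM, with the KO libraries far below every WT library. PLK2 was 2.73-fold lower in KO (log2 -1.45, SE 0.059, adjusted p = 2.22e-20). Its upstream element matches the consensus in full. PLK3 had 8.04 ± 0.379 CPM in WT against 8.11 ± 0.812 CPM in KO cells (SD, n = 3 each), and the 95% interval of its log2 fold change was -0.19 to 0.25.

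**Figure D1:**
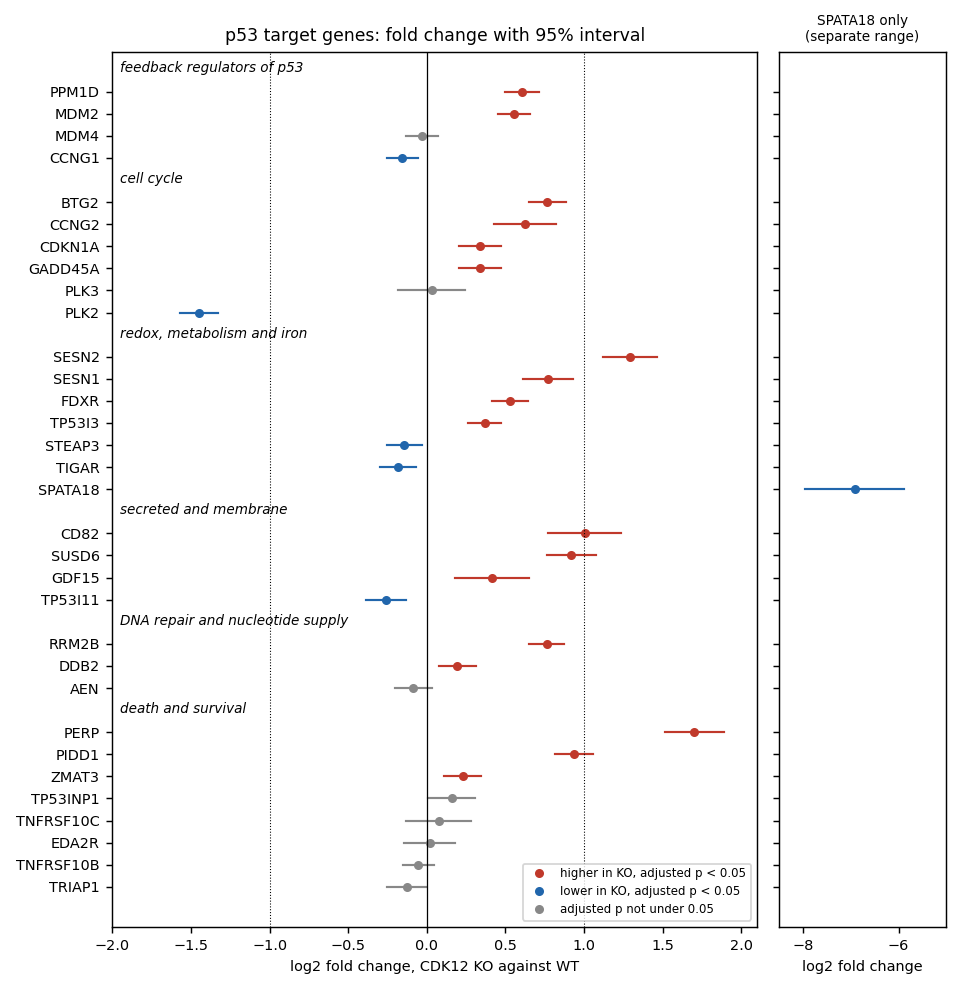
Points are log2 fold changes of KO against WT for the 32 tested p53 targets, grouped by role, with bars for the 95% interval from the edgeR fit; dotted lines mark the fold threshold of 1 on the log2 scale. Rises (red, 18 genes) mostly stay between 0 and 1, and PLK2 and SPATA18 (own panel, from -7.94 to -5.89) are the falls past the threshold.

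In the genes for DNA repair and nucleotide supply, RRM2B and DDB2 were higher in KO. RRM2B is the p53-induced small subunit of ribonucleotide reductase, which makes DNA precursors in cells outside S phase. It was counted 1588, 1701 and 645 times in WT and 2510, 2449 and 1777 times in KO, or 58.0, 56.8 and 58.1 against 102, 91.0 and 99.8 CPM. The groups were well apart, with a 1.70-fold rise (log2 0.76, SE 0.054, adjusted p = 5.87e-14). DDB2, which recognises UV lesions for nucleotide excision repair, rose from 52.2 ± 2.61 to 60.1 ± 3.09 CPM (SD, n = 3 each), with a log2 change of 0.19 (adjusted p = 0.00353). AEN, an exonuclease that promotes apoptosis, was at 61.8 ± 4.83 CPM in WT against 58.2 ± 0.592 CPM in KO cells (SD, n = 3 each; adjusted p = 0.197), and its groups overlapped.

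The redox, metabolism and iron genes had members past both thresholds in each direction. SESN2 and SESN1 encode sestrins, stress proteins that restrain mTORC1. SESN2, on chromosome 1 from 28259518 to 28282491, was counted 2479, 2033 and 676 times in WT and 4418, 4358 and 3648 times in KO. In CPM this was 90.5, 67.9 and 60.9 against 180, 162 and 205; both groups were spread, but no libraries overlapped. SESN2 was 2.45-fold higher in KO (log2 1.29, SE 0.0842, adjusted p = 6.53e-15). Per kilobase of exon it went from 21.1 CPM, the 6th highest level among the 33 targets in WT, to 52.6 CPM, the highest in KO. SESN1 was scarcer, with 13.4 ± 0.964 CPM in WT against 23.0 ± 1.27 CPM in KO cells (SD, n = 3 each), a 1.71-fold rise (adjusted p = 3.31e-10).

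SPATA18, also called Mieap, takes part in mitochondrial quality control and lies on chromosome 4 from 52051304 to 52097299. Its counts were 64, 63 and 35 in WT but 1, 0 and 0 in KO. WT cells thus had a low level of 2.53 ± 0.551 CPM (SD, n = 3), and KO libraries were under the floor. Measured against the highest KO floor of 0.169 CPM, for 3 counts in a library, SPATA18 was at least 15-fold lower in KO (adjusted p = 1.22e-13). FDXR, ferredoxin reductase of the mitochondria, rose 1.44-fold, from 57.4 ± 2.87 to 82.4 ± 4.27 CPM (SD, n = 3 each; adjusted p = 5.69e-10). TP53I3, a quinone oxidoreductase, rose 1.29-fold, from 70.4 ± 0.873 to 90.8 ± 4.28 CPM (SD, n = 3 each; adjusted p = 2.16e-07). TIGAR, a phosphatase that lowers glycolytic flux, fell by a log2 fold change of -0.19 (adjusted p = 0.00484). STEAP3, an endosomal iron reductase, fell by one of -0.14 (adjusted p = 0.0221), but its libraries overlapped, and the adjusted p was 0.0614 with upper-quartile scaling.

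**Figure D2:**
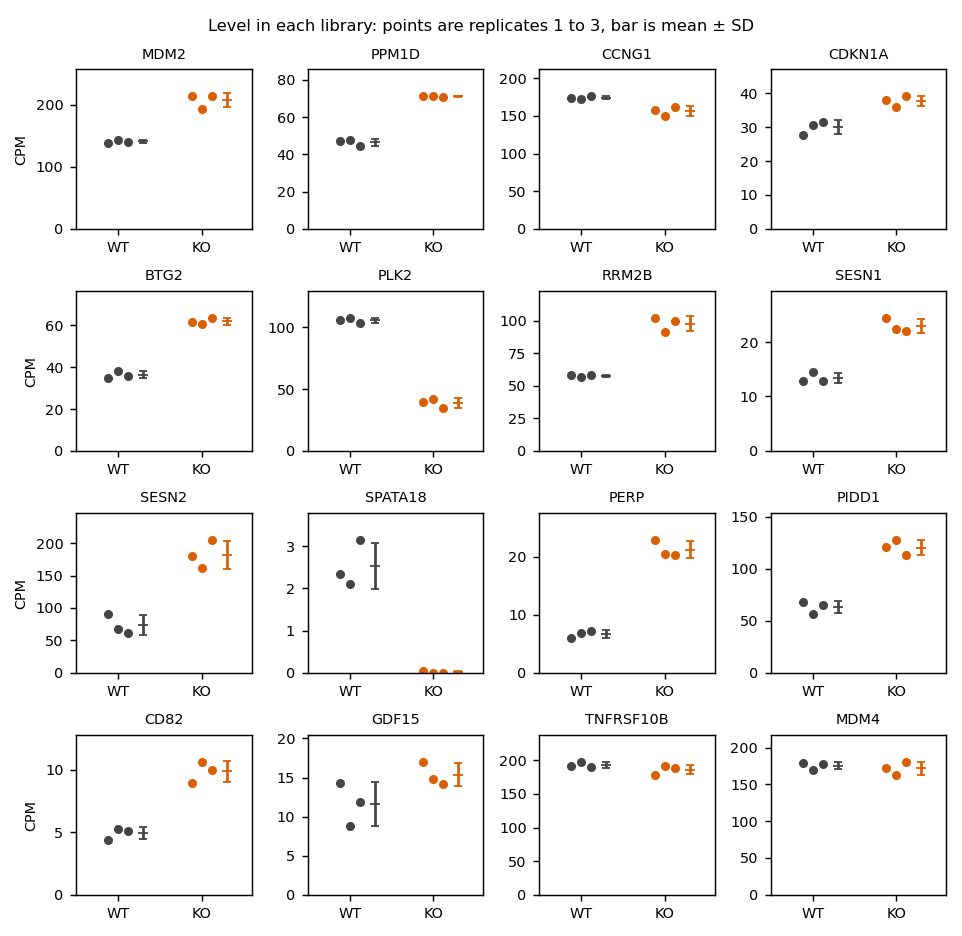
Level in CPM of 16 targets in each library (points, replicates 1 to 3 from left to right in each group) with the mean and SD beside them; every vertical axis starts at 0. SESN2, PERP, PIDD1, CD82 and BTG2 lie higher in all KO libraries, PLK2 and SPATA18 lower, and the groups overlap for GDF15, TNFRSF10B and MDM4.

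The genes of cell death and survival divided into 3 that rose and 5 without a call, beside 31.9% of all tested genes higher and 32.0% lower. PERP, a tetraspan protein of desmosomes that promotes apoptosis, had the largest rise of the 32 targets. It lies on chromosome 6 from 138088505 to 138107419 and was counted 162, 203 and 80 times in WT and 562, 549 and 362 times in KO. Its level was 5.91, 6.78 and 7.2 CPM in WT and 22.9, 20.4 and 20.3 CPM in KO, a 3.25-fold rise (log2 1.70, SE 0.0925, adjusted p = 5.58e-17). PIDD1, the scaffold of the PIDDosome that activates caspase-2, had 67.8, 56.9 and 65.2 CPM in WT, next to 120.5, 128 and 113 CPM in KO. The libraries were clearly apart, and the rise of 1.91-fold fell just short of the fold threshold (log2 0.94, SE 0.0596, adjusted p = 3.85e-15). ZMAT3, an RNA-binding protein that acts on splicing, rose by a log2 fold change of 0.23 (adjusted p = 0.00109).

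The death receptor TNFRSF10B (DR5), which binds the ligand TRAIL, was among the most abundant targets, with 193 ± 4.19 CPM in WT against 186 ± 6.91 CPM in KO cells (SD, n = 3 each). The 95% interval of its log2 fold change was -0.15 to 0.04. TNFRSF10C, a decoy receptor for the same ligand that lacks a death domain, was at 8.83 ± 0.146 and 9.36 ± 0.973 CPM (SD, n = 3 each), with an interval of -0.13 to 0.28. A further decoy of this cluster on chromosome 8, TNFRSF10D, belongs to the other described targets and was 2.49-fold lower in KO (log2 -1.31, adjusted p = 6.14e-15), and TNFRSF10A had no count in any library. EDA2R, a receptor for ectodysplasin, had an interval of -0.14 to 0.18. For TP53INP1, which acts in autophagy and apoptosis, the log2 fold change was 0.16 (adjusted p = 0.061). TRIAP1, a small mitochondrial survival protein, had one of -0.13 (adjusted p = 0.07); its KO libraries were all below the WT libraries although the adjusted p missed the threshold. PHLDA3, an inhibitor of AKT, had no count in WT and counts of 0, 2 and 1 in KO, and was not tested.

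Of the secreted and membrane proteins, CD82, SUSD6 and GDF15 rose. CD82, a tetraspanin known as a suppressor of metastasis, lies on chromosome 11 from 44564427 to 44620358 and was counted 121, 158 and 57 times in WT and 220, 286 and 178 times in KO. This was 4.42, 5.27 and 5.13 CPM against 8.95, 10.6 and 10.00 CPM. Its log2 fold change of 1.01 (SE 0.114, adjusted p = 3.29e-09) was just past the threshold, and it was 0.91 without WT replicate 1, 0.94 without KO replicate 2 and 1.00, just under the threshold, without KO replicate 3. SUSD6, a transmembrane protein also called DRAGO, was counted 428, 582 and 196 times in WT and 778, 949 and 582 times in KO. At 15.6, 19.4 and 17.6 against 31.7, 35.3 and 32.7 CPM it was 1.89-fold higher in KO (log2 0.92, adjusted p = 2.55e-12); without WT replicate 2 it passed the fold threshold as well.

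GDF15, a secreted stress hormone of the TGF-beta family, had 14.3, 8.74 and 11.9 CPM in WT, next to 17.0, 14.8 and 14.2 CPM in KO. The lowest KO library lay just under the highest WT library, and the log2 fold change of 0.42 (SE 0.115, adjusted p = 0.00212) lost its call with DESeq2 (adjusted p = 0.11) and without WT replicate 2 (adjusted p = 0.101). TP53I11 was lower in KO, from 37.9 ± 1.43 to 31.7 ± 2.02 CPM (SD, n = 3 each; log2 -0.26, adjusted p = 5.72e-04). TP53I11 and CD82 lie within 500 kb of each other on chromosome 11 and differed in opposite directions. Other genes there moved further, TSPAN18 with a log2 fold change of -5.69 and SYT13 with one of 5.22.

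Levels were ranked per kilobase of exon, which allows genes to be compared with each other. In WT cells CCNG1 was the highest of the 33 with 56.4 CPM per kilobase, followed by TNFRSF10B with 38.5, TP53I3 with 30.4 and TRIAP1 with 26.5. In KO cells SESN2 came first with 52.6 CPM per kilobase and CCNG1 was next with 50.6. CDKN1A was in the middle, with 10.0 in WT and 12.6 in KO. PERP and CD82, both up-regulated, were among the scarcest targets in WT, with 1.58 and 1.22 CPM per kilobase, and PLK2 went from 22.8 in WT, the 5th highest, to 8.31 in KO, the 17th. Exon length was summed over all annotated exons of a gene, so these levels depend on which exons the cells use.

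Chromosomal neighbours were examined to show whether a target differed alone or with the genes around it. For 31 targets at least 2 other tested genes lay within 500 kb, and the median log2 fold change of these neighbours was within 0.5 of 0 for 28 of them. The exceptions were PLK2, GADD45A and MDM4. PLK2 had only 2 tested neighbours, with log2 fold changes of 0.30 (RAB3C, adjusted p = 0.114) and -2.93 (ENSG00000248475, adjusted p = 7.03e-20). GADD45A had 5, of which GNG12, GNG12-AS1, DIRAS3 and WLS were up-regulated with log2 fold changes of 1.29, 3.51, 3.36 and 1.74, all more than the 0.34 of GADD45A itself. Of the 10 neighbours of MDM4 5 were up-regulated past both thresholds, with a median over the 10 of 0.81, while MDM4 had no call. PERP had a neighbour median of -0.01, but 2 of its 5 neighbours, WAKMAR2 and ARFGEF3, were up-regulated past both thresholds as well (log2 1.65 and 1.35). SESN2 had a neighbour median of -0.22, and of its 27 neighbours 2 were up-regulated and 3 down-regulated past both thresholds. These counts of neighbours stand beside 8.30% of all tested genes up-regulated and 7.73% down-regulated. SPATA18 fell between neighbours with a median log2 fold change of 0.29. Of these LRRC66 was up-regulated (1.48) and DCUN1D4 was higher (0.33), while SGCB (-0.38) and USP46 (-0.35) were lower. The paper reports a larger DNA content and more chromosomes in the KO clone than in the parental cells. The part of gene copy number in these values was not tested.

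**Figure D3:**
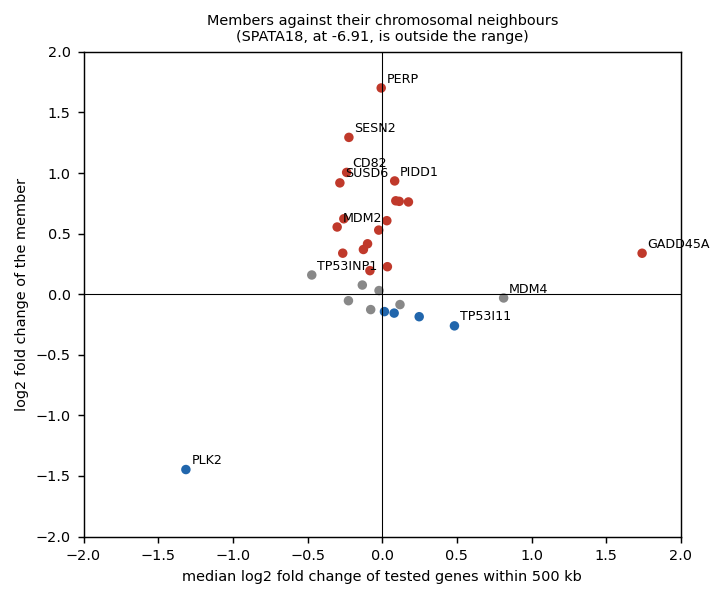
The log2 fold change of each target (vertical axis) is plotted against the median log2 fold change of the other tested genes within 500 kb (horizontal axis); red targets were higher, blue lower and grey had no call. Most targets stand within 0.5 of 0 on the horizontal axis, with PLK2 at -1.31 and GADD45A at 1.74 at its ends; SPATA18 is outside the range.

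A list of 64 other described p53 targets, written by hand with earlier results of these data known, held more rises than falls. Of the 58 tested, 32 were higher and 12 lower in KO at an adjusted p under 0.05, beside 31.9% and 32.0% of all tested genes, and the median log2 fold change was 0.21. Past both thresholds 8 were up-regulated and 6 down-regulated, beside 8.30% and 7.73% of all tested genes. The rises were led by FAS, a death receptor (log2 4.24), SFN, the 14-3-3 sigma protein that holds cells in G2 (3.42), and TGFA, a ligand of the EGF receptor (2.82). TLR3, a sensor of double-stranded RNA, DDIT4, an inhibitor of mTORC1, and BBC3, the BH3-only protein PUMA, had log2 fold changes of 1.64, 1.57 and 1.5. SFN went from 7.10 to 75.6 CPM on average and FAS from 11.5 to 219.5 CPM. ATF3, a stress-induced transcription factor, and CYFIP2 followed with 1.15 and 1.11.

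The falls in this list included the matrix protein THBS1 (log2 -1.97), APAF1, the core of the apoptosome (-1.43), TNFRSF10D, and a pair of genes without a count in KO. GLS2, a mitochondrial glutaminase, was counted 72, 78 and 36 times in WT and was at least 16.8-fold lower in KO, and KITLG, the ligand of the receptor KIT, was counted 14, 23 and 6 times and was at least 3.6-fold lower. BAX, the pore-forming death effector, went from 96.0 to 48.6 CPM (log2 -0.98, adjusted p = 4.69e-17), while BBC3, which promotes its activation, was higher. The members of the list that moved thus include death genes in each direction, and 14 of the 58 had no call.

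Regulators of p53 stability and activity mostly had no call or stayed under the fold threshold, as did most tested genes. Of all tested genes 16.0% passed both thresholds. Of 25 listed genes 24 were tested, 5 were higher and 7 lower (31.9% and 32.0% of all tested genes were), with a median log2 fold change of -0.01. PPP1R13B, which encodes ASPP1, a p53 cofactor that favours death genes, was the 1 gene past both thresholds (log2 1.08, adjusted p = 9.21e-14). HIPK2, a kinase that phosphorylates p53 after severe damage, rose 1.86-fold (adjusted p = 1.04e-10), and TP73, of the p53 family, rose 1.33-fold (adjusted p = 2.71e-06). TP63 was below the filter.

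Genes known to be lowered through p21 and the DREAM complex, a repressor of cell cycle genes, were more often lower than higher in KO. Of the 15, 10 were lower at an adjusted p under 0.05 and 1, FOXM1, was higher (log2 0.26, adjusted p = 3.7e-05), beside 32.0% and 31.9% of all tested genes. The median log2 fold change of the 15 was -0.30. CDC20, which activates the anaphase-promoting complex, was the only gene of this list past both thresholds, with 301 CPM in WT and 105 CPM in KO on average (log2 -1.52). Of its 14 tested neighbours within 500 kb 7 were down-regulated past both thresholds as well, beside 7.73% of all tested genes. AURKB, a mitotic kinase, fell from 107 to 55.8 CPM (log2 -0.94, adjusted p = 8.25e-17). These genes also vary with the share of dividing cells, which the counts do not measure. By flow cytometry the paper found parental and KO cells alike in their spread over the cycle phases, and it reports slower growth of the KO cells. The part of either in these values was not tested.

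**Figure D4:**
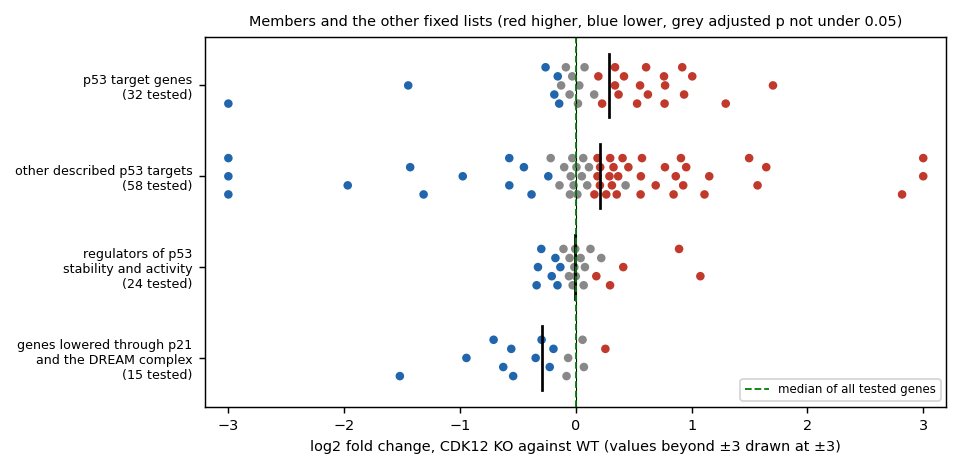
Each point is a tested gene of the p53 targets or of the other lists, placed by its log2 fold change of KO against WT (values beyond 3 or -3 are drawn at that edge); black bars are list medians and the dashed line is the median of all tested genes. The medians are 0.28 for the 32 targets, 0.21 for the 58 others, -0.01 for the 24 regulators and -0.30 for the 15 genes lowered through p21.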

How the data were processed

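The authors deposited raw counts per gene: the study's methods name FastQC, STAR alignment to GRCh38 and HTSeq-Count, with tool versions, annotation release and strand setting not given in the sources used here, so reads of overlapping antisense genes may not be separated. No normalization had been applied. Groups follow the genotype label, with 3 libraries each. The 33 genes and the other lists were chosen with earlier results of these data known, and lists were written by hand. The RNA of the p53 gene itself and 1 gene of the other lists are not reported here.

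Symbols, positions and exon lengths were taken from GENCODE release 44 (56321 of 60483 identifiers matched). For KO against WT, edgeR 4.0.16 (R 4.3.3) was run: filterByExpr (minimum count 10, minimum total 15), TMM, quasi-likelihood test, two-sided, Benjamini-Hochberg over 16198 genes. SE is the log2 fold change divided by the root of F, and intervals are at 95%. All 33 genes are named, those past both thresholds or with the smallest adjusted p of their role group with counts; of the other lists, genes past both thresholds. BAX, FOXM1, AURKB, HIPK2, TP73, TNFRSF10A and the neighbouring genes were named after their values were seen. CPM use TMM-scaled totals. Alternatives were voom/limma 3.58.1, DESeq2 1.42.0, other scalings and filters, and each library left out in turn. In simulated counts for this comparison (15447 genes, 200 changed) edgeR recovered 200 with 0 false calls. A share of changed genes as large as the 63.9% called here at an adjusted p under 0.05 was not tested. Recovery of changes under the fold threshold was not tested separately. Within each group libraries varied beyond counting error (chi-square per degree of freedom 1.66 to 6.42). Elements were searched on the GRCh38 sequence with Python 3.11.15.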

Additional observations from a re-analysis of the deposited data

How the results depend on the processing

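Of the 32 tested p53 targets, 25 kept their direction and their side of an adjusted p of 0.05 under each of the 12 alternatives in which they were tested; SPATA18, among them, was not tested with at least 10 counts in every library. Under that filter 1 was lower past both thresholds. Called on the adjusted p alone, 18 targets were higher and 6 lower in KO. With 1 library left out in turn, 2 to 4 targets were up-regulated and 2 down-regulated past both thresholds, and 17 to 19 were higher and 5 to 7 lower on the adjusted p. Signs turned for 3 targets without a call: with 1 library left out, log2 fold changes ran from -0.067 to 0.0080 for MDM4 (above 0 without KO replicate 2), from -0.062 to 0.089 for PLK3 (below 0 without WT replicate 1 or KO replicate 2) and from -0.035 to 0.097 for EDA2R (below 0 without WT replicate 1, WT replicate 3 or KO replicate 3). Calls were lost for GDF15, as given above, and for STEAP3 (adjusted p 0.0528 to 0.141 in 5 alternatives), and gained for TP53INP1 in 3 alternatives and for AEN without WT replicate 1 (adjusted p = 0.0185). The cause was not tested. The same alternatives were added for the other lists after the data were seen. Wherever they were tested, the genes past both thresholds there kept their direction and an adjusted p under 0.05. Whether they also stayed past the fold threshold was not checked. No paired analysis was possible because no label links a WT library to a KO library. Depth was lowest in WT replicate 3, where 3 counts correspond to 0.270 CPM.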
